A study of Mus musculus with 9 samples.

Results

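The genes described here are 8 genes of cholesterol synthesis and its control, chosen by gene symbol: Hmgcs1, Idi1, Fdft1, Sqle, Lss, Cyp51, Insig1 and Srebf2. A row of the expression table carried the symbol of 6 of them, among 21212 rows in all, and Hmgcs1 and Idi1 were not analysed here. The table came from 9 arrays of primary microglia from the brains of newborn wild-type CD-1 mice, 0 or 1 day old, with litters pooled. All cells were grown for 5 to 7 days with 10 ng/ml each of M-CSF and GM-CSF and moved to serum-free medium overnight. They then received 100 ng/ml LPS, which skews microglia towards the M1 state (3 arrays), 20 ng/ml IL-4, which skews them towards the M2a state (3 arrays), or an equal volume of PBS, which leaves them resting (3 arrays), each for 4 h. Values are log2 expression values, so a difference of 1 is a doubling.

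Cells make cholesterol from acetyl-CoA through mevalonate and the isoprenoids, which squalene synthase joins to squalene. Squalene is then oxidised, closed into the sterol lanosterol and trimmed to cholesterol. When the membrane of the endoplasmic reticulum is low in sterol, Scap carries the precursor encoded by Srebf2 to the Golgi, where proteases release a transcription factor that switches on nearly all genes of this pathway. When sterol is plentiful, Insig1 holds Scap back. Macrophages and microglia also take up cholesterol from lipoproteins and cell debris and export it through ABC transporters.

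The arrays differed in ways that touch these genes. In LPS and in PBS the array of replicate 3 differed from the other two, while the 3 IL-4 arrays lay close together. Higher values on replicate 3 than on both other arrays were found for 6848 (LPS) and 6692 (PBS) of all 21212 rows. For motile cilia markers, which microglia are not known to use, it was 9 of 9 genes in LPS and 9 of 9 in PBS. The mean level of that list lay between 6.97 and 8.71 on the LPS arrays, between 8.37 and 8.67 on the IL-4 arrays and between 7.25 and 9.05 on the PBS arrays. Astrocyte markers averaged 9.84 to 10.32 (LPS), 10.13 to 10.15 (IL-4) and 9.90 to 10.46 (PBS) over 10 genes, and oligodendrocyte lineage markers 7.22 to 8.12, 7.46 to 7.74 and 7.39 to 8.28 over 11 genes. Of the microglia markers, Csf1r lay at 10.77 to 11.90 and Itgam at 10.19 to 10.62 over all 9 arrays, whereas Siglech (5.83 to 6.15) and Gpr34 (3.49 to 6.14) were below the array medians, which ran from 7.20 to 7.39. Glial and ciliated cell genes were thus measured in cultures labelled as microglia, and in such bulk RNA fewer cells of a type and less RNA per cell cannot be told apart. Nothing in the labels says that the replicates came from separate cultures, so p-values measure the spread between these arrays.

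Of the 6 measured members, all but Fdft1 and Sqle matched the promoter table. The promoters of these 4 members, from 250 bases before the start of the gene to 50 after it, are shown. Lss, Cyp51 and Insig1 shared low values on replicate 3 of LPS and PBS, while Srebf2 was lower there by less (-0.00 in LPS and -0.13 in PBS). The sequences are from RefSeq (build GRCm38.p6) and are written 5′ to 3′ on the strand of the gene. Capitals mark 3 motifs on either strand: CCAAT, the box bound by NF-Y, which reads ATTGG on the other strand; CACGTG, the E-box; and TCACNCCAC, a form of the sterol regulatory element.
Lss, chr10:76531355-76531654, plus strand: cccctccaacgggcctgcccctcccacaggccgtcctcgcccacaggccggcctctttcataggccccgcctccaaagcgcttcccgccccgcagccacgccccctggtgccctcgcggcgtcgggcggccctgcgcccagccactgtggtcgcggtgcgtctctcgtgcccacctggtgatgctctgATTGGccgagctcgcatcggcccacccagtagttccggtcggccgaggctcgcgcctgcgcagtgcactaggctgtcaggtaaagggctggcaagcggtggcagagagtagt
Cyp51, chr5:4104648-4104947, minus strand: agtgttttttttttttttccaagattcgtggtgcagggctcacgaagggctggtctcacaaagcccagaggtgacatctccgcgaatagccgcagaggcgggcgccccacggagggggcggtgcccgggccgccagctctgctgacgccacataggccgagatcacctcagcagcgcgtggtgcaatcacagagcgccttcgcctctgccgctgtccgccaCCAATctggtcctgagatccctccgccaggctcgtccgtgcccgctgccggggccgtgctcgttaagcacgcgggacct
Insig1, chr5:28071162-28071461, plus strand: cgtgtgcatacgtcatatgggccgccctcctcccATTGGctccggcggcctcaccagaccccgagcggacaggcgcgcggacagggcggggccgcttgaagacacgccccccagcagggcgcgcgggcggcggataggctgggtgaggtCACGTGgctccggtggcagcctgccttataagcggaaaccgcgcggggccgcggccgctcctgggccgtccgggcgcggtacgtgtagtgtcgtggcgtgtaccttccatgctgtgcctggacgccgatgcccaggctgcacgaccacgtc
Srebf2, chr15:82147019-82147318, plus strand: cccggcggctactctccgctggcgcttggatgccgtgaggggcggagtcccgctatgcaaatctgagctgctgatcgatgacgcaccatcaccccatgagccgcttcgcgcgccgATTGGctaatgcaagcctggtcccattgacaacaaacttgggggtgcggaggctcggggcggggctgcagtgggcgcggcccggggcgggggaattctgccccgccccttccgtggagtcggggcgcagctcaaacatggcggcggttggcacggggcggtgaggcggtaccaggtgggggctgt
Each of the 4 held 1 CCAAT box, starting at position -62 (Lss), -29 (Cyp51), -216 (Insig1) and -135 (Srebf2) from the start of the gene, a motif found in 37.4% of 32851 promoters of the same length. Of these 4, Insig1 held CACGTG, at -101, found in 7.15% of promoters. None of the 4 held TCACNCCAC, found in 1.24% of promoters, which says only that these letters are not in these windows. Of the members not analysed on the arrays, Hmgcs1 held TCACNCCAC once, at -137, and Idi1 did not. Of the 17 enzymes, Insig1 and Srebf2, 16 genes matched the promoter table, and 16 of those 16 held CCAAT, 4 CACGTG and 0 TCACNCCAC in any of their promoters. These counts are per gene, and a gene can have several promoters, so they cannot be read against the shares per promoter. CCAAT was thus present in all 4 members shown, whatever the size of their difference on replicate 3, and its part in that difference was not tested.

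Sqle, which encodes squalene epoxidase, was the member with the clearest response to LPS. Its levels were 9.75, 9.89 and 9.66 on the LPS arrays, 10.71, 10.81 and 10.76 on the IL-4 arrays and 10.63, 10.55 and 10.42 on the PBS arrays. All 3 LPS arrays lay below all other arrays, and all 3 IL-4 arrays lay above all PBS arrays. Sqle averaged 9.77 ± 0.12 with LPS and 10.54 ± 0.10 with PBS (SD, n = 3 each), a fall of 1.70-fold (log2 difference -0.77, SE 0.08, limma adjusted p = 7.57e-05). It was 1.99-fold lower with LPS than with IL-4 (log2 difference -0.99, adjusted p = 1.60e-05 by limma). The IL-4 mean of 10.76 exceeded the PBS mean by 0.22 (95% interval 0.05 to 0.40), which missed the threshold after adjustment (limma adjusted p = 0.144).

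**Figure D1:**
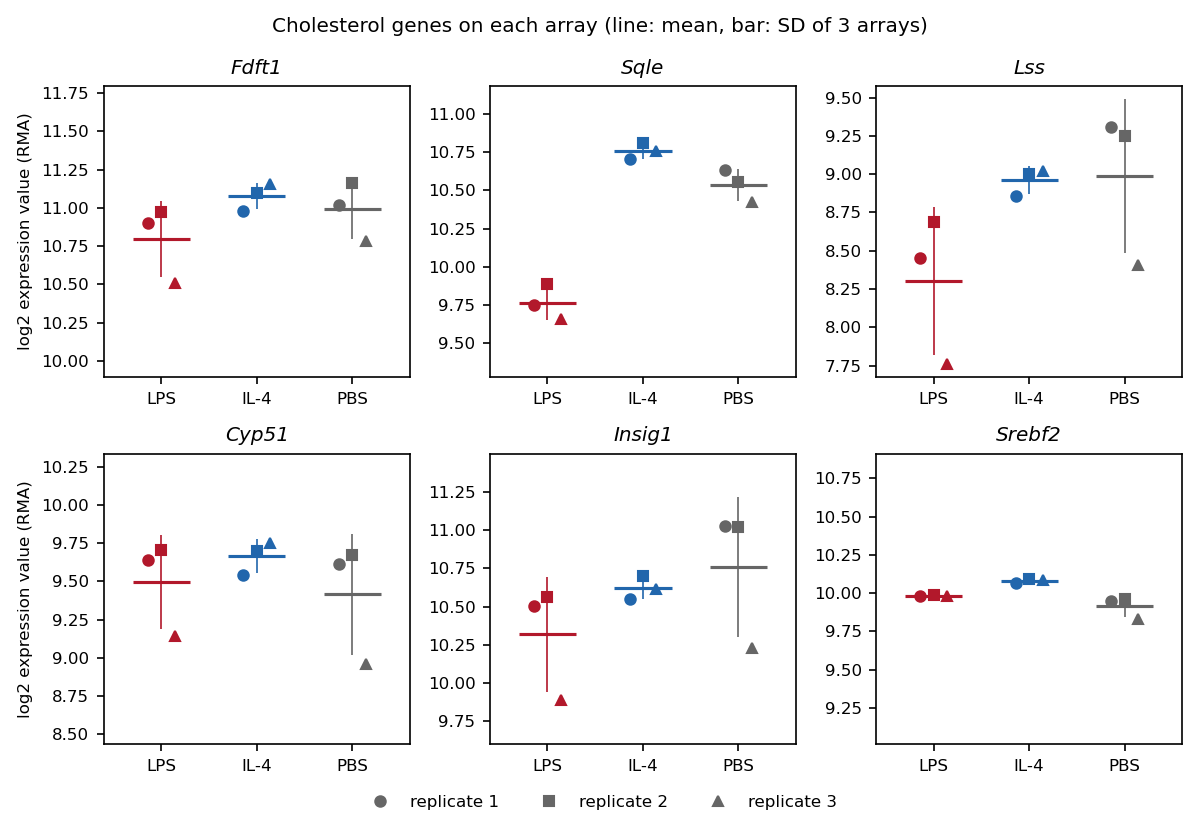
Log2 expression value of each measured member on each of the 9 arrays, with LPS, IL-4 and PBS from left to right, marker shape for the replicate number, a line at the mean and a bar of 1 SD; every panel spans the same height in log2 units. The LPS arrays lie below the rest for Sqle, and the triangles of LPS and PBS lie low for Fdft1, Lss, Cyp51 and Insig1.

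Fdft1, which encodes squalene synthase, the step before Sqle, differed little between the conditions. Its levels were 10.90, 10.97 and 10.51 with LPS, 10.98, 11.10 and 11.15 with IL-4 and 11.02, 11.16 and 10.79 with PBS. LPS and PBS overlapped, and only the LPS arrays all lay below the IL-4 arrays. The LPS mean was 10.80 ± 0.25 and the PBS mean 10.99 ± 0.19, a difference of -0.19 (SE 0.14, limma adjusted p = 0.304). The means ran in the order LPS, PBS, IL-4, and no neighbours in that order differed beyond their spread.

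Lss, which encodes lanosterol synthase, the enzyme that closes the sterol rings, had the largest spread of the 6 genes within LPS and within PBS, though not within IL-4. Its levels were 8.45, 8.69 and 7.76 with LPS, 8.86, 9.00 and 9.02 with IL-4 and 9.31, 9.25 and 8.41 with PBS. Replicate 3 of PBS lay below the first 2 LPS arrays, so LPS and PBS overlapped, while all LPS arrays lay below all IL-4 arrays. Lss averaged 8.30 ± 0.48 with LPS and 8.99 ± 0.50 with PBS, a difference of -0.69 (SE 0.28) that did not pass the limma test over all 9 arrays (adjusted p = 0.0914).

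Cyp51, which encodes the demethylase that acts on lanosterol, was level across the conditions apart from replicate 3. Its levels were 9.64, 9.70 and 9.14 with LPS, 9.54, 9.70 and 9.75 with IL-4 and 9.62, 9.67 and 8.96 with PBS. All 3 conditions overlapped. The LPS mean of 9.50 ± 0.31 and the PBS mean of 9.42 ± 0.40 differed by 0.08 (95% interval -0.40 to 0.56, limma adjusted p = 0.793). Leaving out PBS replicate 3 turned this difference to -0.15, and leaving out LPS replicate 2 to -0.02.

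Insig1, the sterol-dependent brake on the pathway, followed the pattern of Lss. Its levels were 10.50, 10.56 and 9.89 with LPS, 10.55, 10.70 and 10.62 with IL-4 and 11.02, 11.02 and 10.23 with PBS. Without replicate 3 the PBS arrays were the highest, and with it all 3 conditions overlapped. The LPS mean of 10.32 ± 0.38 lay 0.44 below the PBS mean of 10.76 ± 0.46 in log2 units (difference -0.44, SE 0.24, limma adjusted p = 0.193).

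Srebf2, the gene of the transcription factor itself, was the steadiest of the 6. Its levels were 9.98, 9.99 and 9.98 with LPS, 10.07, 10.09 and 10.09 with IL-4 and 9.95, 9.96 and 9.83 with PBS. The conditions did not overlap, in the order IL-4, LPS, PBS from high to low, but the steps were small. LPS exceeded PBS by 0.07 (SE 0.05, limma adjusted p = 0.32), and IL-4 exceeded PBS by 0.17 (95% interval 0.06 to 0.28, limma adjusted p = 0.0953). The sign for LPS against PBS turned to -0.02 when the arrays were quantile normalized again, and with array medians subtracted the difference was 0.18 (adjusted p = 0.0401).

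For LPS against PBS over all 9 arrays, 1 of the 6 members was called lower and none higher by limma, beside 22.4% of all rows lower and 15.4% higher. At an unadjusted p under 0.05 there were 2 lower and 0 higher members, and the methods' t-test after adjustment called 1 lower and 0 higher. Replicate 3 of LPS and of PBS deviated together from their condition means (r = 0.80). Numbers 1 and 2 gave r of 0.578 and 0.651 same-numbered and 0.542 and 0.605 crossed, so the values do not pair these 2 numbers. The same-numbered differences and the block fits below take that pairing as given. Within the pairs Sqle was lower with LPS by a similar amount each time, with differences of -0.88, -0.66 and -0.76. The LPS minus PBS difference of Lss was -0.85, -0.56 and -0.65, and that of Insig1 was -0.52, -0.45 and -0.34. Fdft1 gave -0.12, -0.19 and -0.28. The same difference was above 0 but small in Cyp51 (0.03, 0.03 and 0.18) and Srebf2 (0.03, 0.03 and 0.15), and after quantile normalization neither gene stayed above 0 in all 3 pairs. Thus 4 of 6 members were lower with LPS in all 3 pairs, against 37.0% of all rows, and 2 of 6 were higher, against 31.9%.

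When LPS and PBS arrays were paired by a replicate block on those 6 arrays, a fit chosen after the data had been seen, 4 of 6 members fell with LPS, beside 28.8% of all rows. The adjusted p of this limma fit was 4.43e-04 for Sqle, 0.00109 for Lss, 0.00224 for Insig1 and 0.0329 for Fdft1. Cyp51 (adjusted p = 0.284) and Srebf2 (adjusted p = 0.332) did not pass. With the block over all 9 arrays, where the IL-4 numbers did not pair, 2 members passed, Sqle and Lss (limma adjusted p = 1.46e-04 and 0.0343). Without replicate 3 of LPS and of PBS, 3 of 6 members were called lower with LPS on the 7 arrays left, against 28.3% of rows: Sqle (-0.77), Lss (-0.71, limma adjusted p = 5.45e-04) and Insig1 (-0.49, limma adjusted p = 4.23e-04). Leaving out PBS replicate 3 alone also brought Lss (-0.98) and Insig1 (-0.70) past the threshold, whereas leaving out LPS replicate 3 alone gave -0.42 for Lss and -0.22 for Insig1, neither called.

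**Figure D2:**
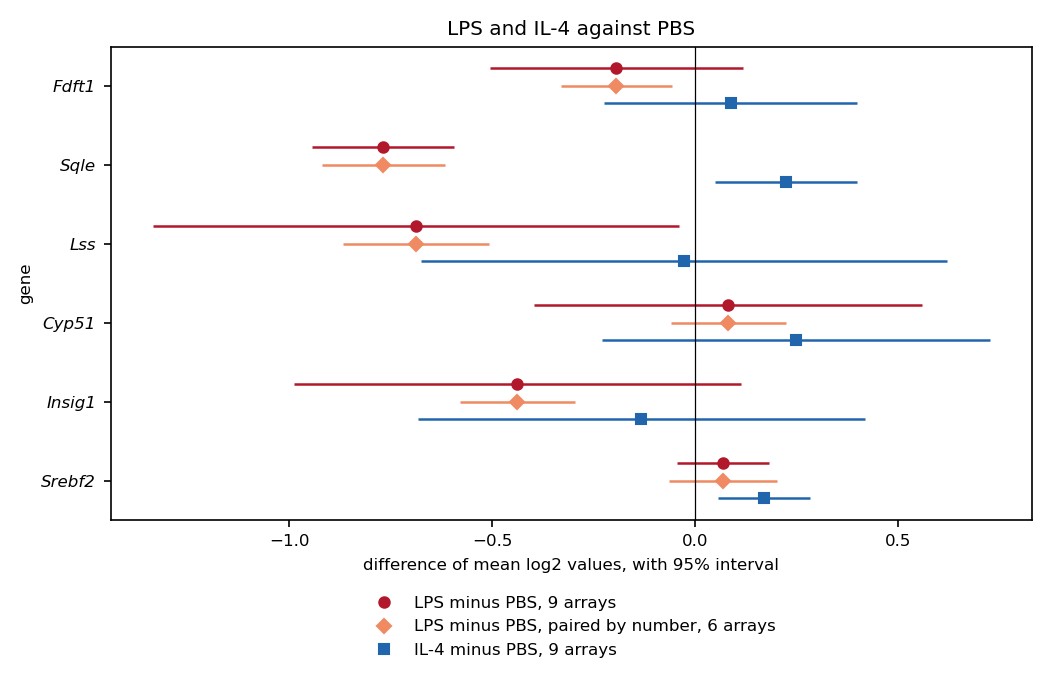
Differences of mean log2 values with 95% intervals for the 6 members, for LPS minus PBS over 9 arrays, LPS minus PBS paired by replicate number over 6 arrays, and IL-4 minus PBS over 9 arrays. Pairing leaves the LPS minus PBS difference as it is and shortens the interval for Fdft1, Lss, Cyp51 and Insig1, and for Lss it runs from -0.87 to -0.51.

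None of the 6 members was called by limma for IL-4 against PBS, beside 5.40% of all rows in either direction, with 2 members at an unadjusted p under 0.05 (Sqle and Srebf2, both higher) and none by the methods' t-test after adjustment. The differences ran from -0.13 for Insig1 to 0.25 for Cyp51. Groups that did not overlap, with IL-4 above PBS, were seen for 2 of 6 members, Sqle and Srebf2, against 14.7% of all rows. The PBS arrays entered both comparisons, and a low PBS replicate 3 raises the IL-4 minus PBS differences. In LPS minus PBS a low LPS replicate 3 works against it. On the 7 arrays without replicate 3 of LPS and PBS, Insig1 (-0.40, limma adjusted p = 0.00187) and Lss (-0.32, limma adjusted p = 0.0277) were called lower with IL-4 than with PBS, 2 of 6 members against 13.5% of rows. In the same fit Srebf2 was called higher (0.13, limma adjusted p = 0.0436), 1 of 6 members against 16.6% of rows. On these 7 arrays Insig1 was thus lower with either stimulus than with PBS, while over all 9 arrays neither difference was called. The arrays left out were those on which the members were low. In the same IL-4 fit 9 of 9 motile cilia markers were called higher, and of 10 astrocyte markers 7 were called higher and 1 lower. The part of these marker differences in the Insig1 and Lss calls was not tested.

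The direct comparison of LPS with IL-4 put all 6 means lower with LPS, beside 9838 of all 21212 rows. Only Sqle passed the limma test, 1 of 6 members beside 25.9% of all rows lower, and none was higher, beside 21.0% of rows. At an unadjusted p under 0.05, 2 members were lower and 0 higher, and the methods' t-test called 2 lower, Sqle and Srebf2 (adjusted p = 0.002 for Srebf2), and 0 higher. Groups that did not overlap were seen for 4 of 6 members (Fdft1, Sqle, Lss and Srebf2), against 31.5% of rows. Lss was lower with LPS than with IL-4 by 0.66 in log2 units (difference -0.66, 95% interval -1.31 to -0.01, limma adjusted p = 0.0857), Fdft1 by 0.28 (difference -0.28, adjusted p = 0.118 by limma). For Cyp51 the difference was -0.17, or 0.01 without LPS replicate 3.

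The other enzymes of the pathway were described by a list of 17 measured enzymes, 4 of them members. Over all 9 arrays LPS lowered 4 of the 17 by limma, Sqle, Dhcr7, Mvk and Lbr, and raised 1, Ggps1, which is near the 22.4% of all rows lower and 15.4% higher. The median difference was -0.31, beside 0.01 over all rows. The methods' t-test called 1 of the 17 lower, Sqle, and 1 higher, and neither Mvk (adjusted p = 0.133) nor Lbr (adjusted p = 0.196). Dhcr7, which reduces the last double bond on one route to cholesterol, was the largest change: 8.28, 8.47 and 7.74 with LPS against 9.54, 9.64 and 8.88 with PBS, and 9.46, 9.46 and 9.43 with IL-4. No LPS array reached any other array, and the fall was 2.28-fold (log2 difference -1.19, SE 0.23, adjusted p = 0.00333 by limma; adjusted p = 0.0733 by the methods' t-test). Mvk, the mevalonate kinase gene, was lower with LPS on every array (7.91, 8.05 and 7.73 against 8.58, 8.62 and 8.10 with PBS, difference -0.54, limma adjusted p = 0.0159), a call that ended with PBS replicate 1 left out (-0.46, adjusted p = 0.0574), with PBS replicate 2 left out (-0.44, adjusted p = 0.0587), on the 6 arrays compared (adjusted p = 0.051) and under either rescaling of the arrays (adjusted p = 0.0534 and 0.0536). Lbr, whose protein holds a sterol reductase domain and also binds the nuclear lamina, fell by 0.39 (adjusted p = 0.0416 by limma) and missed the threshold with any single array left out other than LPS replicate 2 or PBS replicate 3 (-0.27 to -0.44, adjusted p 0.0607 to 0.133 by limma) and with array medians subtracted (-0.28, adjusted p = 0.139).

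Ggps1 directs isoprenoid units away from sterols, to the geranylgeranyl groups that are attached to proteins. It was the single enzyme that rose, with 8.44, 8.39 and 8.54 under LPS, 8.13, 8.22 and 8.21 under IL-4 and 7.997, 8.02 and 8.20 under PBS. All LPS arrays lay above all others (LPS minus PBS 0.39, SE 0.07, limma adjusted p = 0.00234).

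With the replicate block over all 9 arrays, 7 of the 17 enzymes fell and 1 rose, beside 5329 of 21212 rows lower. With the block over 6 arrays, the fit chosen after the data had been seen, 13 fell and 1 rose, beside 28.8% of all rows lower. On the 7 arrays without replicate 3 of LPS and PBS 11 fell and 1 rose, beside 28.3% of all rows lower. The 13 of the block over 6 arrays were also lower with LPS in all 3 same-numbered pairs, whose differences that fit tests. The number lower in all pairs was 13 after quantile normalization and 11 with array medians subtracted. In pathway order the 13 were Mvk, Mvd, Fdps, Fdft1, Sqle, Lss, Tm7sf2, Lbr, Msmo1, Nsdhl, Ebp, Sc5d and Dhcr7. Mvd, the decarboxylase that yields the first isoprenoid, missed the threshold over 9 arrays without the block (-0.82, limma adjusted p = 0.113). It passed with the block over 6 arrays (limma adjusted p = 0.00155) and over 9 arrays (limma adjusted p = 0.0359), with pair differences of -0.99, -0.91 and -0.56. The demethylation gene Nsdhl (-0.41) and the sterol isomerase gene Ebp (-0.52) likewise missed the threshold without the block (limma adjusted p = 0.19 and 0.0665) and passed with it over 6 arrays (adjusted p = 0.00211 and 9.60e-04). Both also passed with array weights (limma adjusted p = 0.0131 and 0.00183), and Ebp passed after quantile normalization (adjusted p = 0.0472). Pmvk (-0.05) and Hsd17b7 (0.06) differed little over 9 arrays. Pmvk differed in sign between pairs. Hsd17b7 was above 0 in all 3 pairs, by 0.14 at most, and below 0 without PBS replicate 3.

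**Figure D3:**
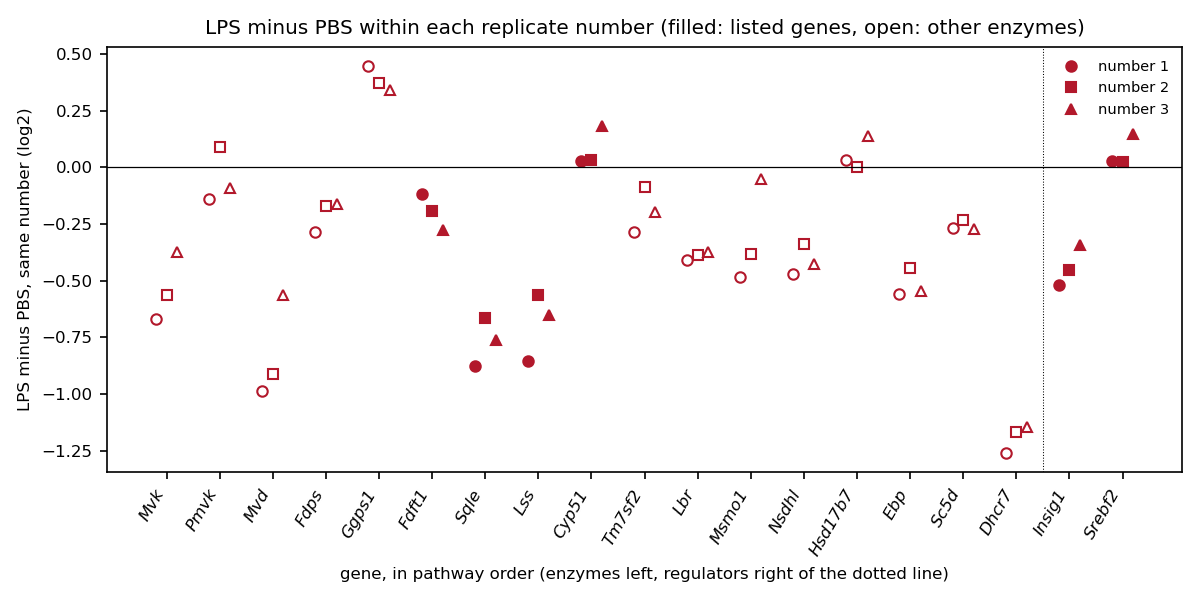
LPS minus PBS log2 difference within each replicate number for 17 cholesterol synthesis enzymes in pathway order and, right of the dotted line, Insig1 and Srebf2; marker shape gives the number. The 3 points lie below 0 for 13 enzymes and for Insig1, lowest for Dhcr7, and above 0 for Ggps1, Cyp51, Hsd17b7 and Srebf2.

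None of the 17 enzymes was called for IL-4 against PBS over 9 arrays (limma), with 1 at an unadjusted p under 0.05 and 0 by the methods' t-test, and the differences ran from -0.25 to 0.25. On the 7 arrays, 6 of them were called lower and 1 higher with IL-4, beside 13.5% of all rows lower and 16.6% higher. In that fit 9 of 9 motile cilia markers were also called higher with IL-4.

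Of 8 sterol sensing genes measured besides Insig1 and Srebf2, 2 fell and 1 rose with LPS over 9 arrays by limma, near the 22.4% of all rows lower and 15.4% higher. LPS was below PBS in all 3 pairs for 6 of the 8, against 37.0% of all rows. Rnf139, a membrane ubiquitin ligase that acts in this system, rose by 1.16: its levels were 10.45, 10.42 and 10.45 with LPS, 9.46, 9.49 and 9.32 with IL-4 and 9.19, 9.22 and 9.42 with PBS. All LPS arrays stood about 1 log2 unit above the rest (SE 0.07, limma adjusted p = 4.75e-06). Mbtps1, the gene of the first protease that cuts the Srebf2 product, fell by 0.42 (limma adjusted p = 0.005), a call that the methods' t-test did not make (adjusted p = 0.0653). Srebf1, the partner factor that mainly drives fatty acid synthesis, stood at 8.95, 8.92 and 9.08 with LPS, 9.55, 9.42 and 9.53 with IL-4 and 9.19, 9.17 and 9.35 with PBS. It fell by 0.26 with LPS (limma adjusted p = 0.0195), and missed the threshold with array medians subtracted (-0.14, adjusted p = 0.0859) and when LPS replicate 1 (-0.24), LPS replicate 2 (-0.22) or PBS replicate 3 (-0.20) was left out (adjusted p 0.0522 to 0.0672 by limma). The methods' t-test did not call Srebf1 either (adjusted p = 0.0843). Scap (-0.19), Insig2 (-0.08), Mbtps2 (-0.12), Erlin1 (-0.12) and Erlin2 (-0.32) missed the threshold. Scap and Erlin2 passed it with the replicate block over 6 arrays (limma adjusted p = 0.0237 and 0.00345) and over 9 arrays (limma adjusted p = 0.0454 and 0.0245).

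Genes of cholesterol uptake and of its movement inside the cell were mostly lower with LPS. Of 11 measured, 6 fell and 1 rose by limma, with a median of -0.50, beside 22.4% of all rows lower and 15.4% higher. Microglia markers were lower alongside: 6 of 9 fell with LPS (median -0.70), among them Cx3cr1 (-1.80), P2ry12 (-0.85) and Csf1r (-0.76), and their part in this and the other gene groups lower with LPS was not tested. Nceh1, a hydrolase of stored cholesteryl esters, was lowest, with 10.44, 10.51 and 9.89 under LPS against 11.65, 11.62 and 11.33 under PBS (-1.26, limma adjusted p = 3.21e-04). Gramd1b, a carrier of sterol from the plasma membrane, fell by 0.96 (limma adjusted p = 0.00191, or adjusted p = 0.0558 by the methods' t-test), although the pair differences were uneven at -0.69, -0.67 and -1.52. Npc1, which moves cholesterol out of lysosomes, fell by 0.82 (limma adjusted p = 1.70e-04), and the lipoprotein receptor gene Scarb1 fell by 0.81 (limma adjusted p = 0.0314). Scarb1 missed the threshold with array medians subtracted (-0.70) and when LPS replicate 3 (-0.57), PBS replicate 1 (-0.67), PBS replicate 2 (-0.69), IL-4 replicate 1 or IL-4 replicate 3 was left out (adjusted p 0.0507 to 0.103 by limma). It also missed by the methods' t-test (adjusted p = 0.191).

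Stard3, which encodes a sterol transfer protein of late endosomes, went the other way: it stood at 9.76, 9.76 and 9.60 with LPS, 8.60, 8.49 and 8.61 with IL-4 and 8.98, 8.99 and 8.83 with PBS. The 3 conditions did not overlap, and both differences from PBS passed the limma test, 0.77 with LPS (adjusted p = 4.06e-05) and -0.37 with IL-4 (adjusted p = 0.0196). The IL-4 call was lost when any 1 array of IL-4, PBS replicate 1 or PBS replicate 2 was left out, with adjusted p of 0.0605 to 0.0874 by limma. It was also lost by the methods' t-test (adjusted p = 0.0784). Npc2, the soluble partner of Npc1, and Mylip, a ligase for lipoprotein receptors, did not pass with LPS (0.01 and 0.19). Mylip was called higher on the 7 arrays without replicate 3 of LPS and PBS (0.42, limma adjusted p = 0.00169). It was also called with array weights (limma adjusted p = 0.00358) and without LPS replicate 3 (limma adjusted p = 0.0366), but its difference in pair 3 was -0.25. Npc2 (-0.26, limma adjusted p = 0.0566) and the lysosomal lipase gene Lipa (-0.16, limma adjusted p = 0.295) did not pass with IL-4 in the fit of 9 arrays. Npc2 passed under several alternatives, among them 7 arrays (adjusted p = 0.00375), array weights (4.73e-04), the replicate block (0.0459) and quantile normalization (0.0461), all by limma. Lipa passed by limma on 7 arrays (adjusted p = 0.0338) and with array weights (0.0122), and by the methods' t-test (adjusted p = 0.0463).

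Among the genes that oxidise or export cholesterol, Ch25h, which hydroxylates the side chain of cholesterol to an oxysterol that blocks processing of the Srebf2 product, stood at 12.09, 12.05 and 12.26 with LPS, 9.43, 9.60 and 9.48 with IL-4 and 8.12, 8.04 and 8.51 with PBS. The conditions were far apart: it rose 15.0-fold with LPS (log2 difference 3.91, SE 0.12, limma adjusted p = 8.31e-08) and 2.43-fold with IL-4 (1.28, limma adjusted p = 7.46e-04). Cyp7b1, which further converts such oxysterols, rose by 1.41 with LPS (limma adjusted p = 3.00e-04). Cyp27a1, a sterol hydroxylase of mitochondria, fell with both, by 1.23 with LPS (limma adjusted p = 8.29e-05) and by 0.97 with IL-4 (limma adjusted p = 0.00353, or adjusted p = 0.0773 by the methods' t-test). Gpr183, the receptor for oxysterols made from the Ch25h product, fell by 1.71 with LPS (limma adjusted p = 1.69e-04) and rose by 0.93 with IL-4 (limma adjusted p = 0.0307). Its IL-4 call was lost by limma without any 1 IL-4 array, PBS replicate 1 or PBS replicate 2 (adjusted p 0.0712 to 0.122). It was also lost with the replicate block over 9 arrays (limma adjusted p = 0.0504) and by the methods' t-test (adjusted p = 0.147). Of the 8 genes, 4 fell and 2 rose with LPS, beside 22.4% and 15.4% of all rows. The cholesterol exporter gene Abca1 (-0.26) and Nr1h3 (0.29), which encodes a sterol-activated receptor, did not pass over 9 arrays without the block. Both passed with the replicate block over 6 arrays (limma adjusted p = 0.0451 and 0.00725) and over 9 arrays (limma adjusted p = 0.0479 and 0.0468). With IL-4 neither Abca1 (0.12) nor the exporter gene Abcg1 (-0.19) passed in the fit of 9 arrays. On the 7 arrays without replicate 3 of LPS and PBS, Abca1 was called higher (0.26, limma adjusted p = 0.00486) and Abcg1 lower (-0.48, limma adjusted p = 0.00454). In that fit 4 of the 8 genes were called higher and 2 lower, beside 16.6% and 13.5% of all rows. Both exporter genes also passed with array weights (limma adjusted p = 0.00687 and 0.00905).

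Fatty acid synthesis, the other arm under the same family of factors, had 14 of 14 differences below 0 with LPS, beside 10407 of all 21212 rows. Of the 14 genes, 10 passed the limma test (median -0.43), beside 22.4% of all rows lower and the 6 of 9 microglia markers that fell. Lpin1, a phosphatidate phosphatase gene, fell by 2.50 (limma adjusted p = 2.69e-05), Mid1ip1, a partner of acetyl-CoA carboxylase, by 1.08 (limma adjusted p = 1.56e-04), the acyltransferase gene Gpam by 0.62 (limma adjusted p = 0.023) and the desaturase gene Fads1 by 0.60 (limma adjusted p = 1.24e-05). The Gpam call was lost by limma without LPS replicate 1, LPS replicate 2 or PBS replicate 3 (adjusted p 0.0505 to 0.0826). It was also lost by the methods' t-test (adjusted p = 0.163). Acly (-0.24) and Me1 (-0.02, or 0.09 with array medians subtracted), which supply acetyl-CoA and reducing power, did not pass. Acly passed with the replicate block over 6 arrays (limma adjusted p = 0.01) and over 9 arrays (limma adjusted p = 0.0411). Me1 was the gene of this list that rose with IL-4 in the fit of 9 arrays (0.39, limma adjusted p = 0.0056), whereas Scd2 (0.13) and Fads2 (0.02) did not pass. Scd2 was called higher on the 7 arrays without replicate 3 of LPS and PBS (0.17, limma adjusted p = 0.0377) and with array weights (limma adjusted p = 0.0123).

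Replicate 3 differed from replicates 1 and 2 for the members in LPS and in PBS but not in IL-4. These are descriptions, since the split was chosen with results of these data known. All 6 members were below both other arrays on LPS replicate 3, against 47.8% of all rows, and all 6 on PBS replicate 3, against 48.7% of rows; on IL-4 replicate 3 it was 0 of 6, against 34.5%. Replicate 3 minus the mean of replicates 1 and 2 was -0.81 (LPS), 0.09 (IL-4) and -0.87 (PBS) for Lss. For Insig1 it was -0.65, -0.01 and -0.79, and for Cyp51 -0.53, 0.13 and -0.68. Replicates 1 and 2 themselves differed by 0.24 or less in these genes. Fdft1 followed with -0.43, 0.12 and -0.31, and Sqle with the smaller -0.16, 0.00 and -0.17. Srebf2 was almost flat, at -0.00 (LPS), 0.01 (IL-4) and -0.13 (PBS), and after quantile normalization its LPS value was 0.02, so that 5 of 6 members were then below both.

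Of the 17 enzymes, 16 were below both other arrays on replicate 3 in LPS and 16 in PBS, with Ggps1 as the exception in both, and 1 of 17 (Dhcr7) in IL-4. Their median differences were -0.51 (LPS), 0.05 (IL-4) and -0.54 (PBS), beside -0.05, -0.01 and -0.04 over all rows. Mvd had the largest, -0.89 in LPS and -1.28 in PBS. The genes of fatty acid synthesis were mixed, with medians of 0.11 (LPS), 0.05 (IL-4) and 0.07 (PBS). Of the 14, 4 were below both other arrays in LPS and 4 in PBS, among them Lpin1 (-0.43 and -0.77) and Acly (-0.23 and -0.28), while 9 in LPS and 8 in PBS were above both, and Srebf1 was above both other arrays in LPS (0.15) and PBS (0.17). For sterol sensing genes the medians were 0.03, -0.01 and 0.04.

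**Figure D4:**
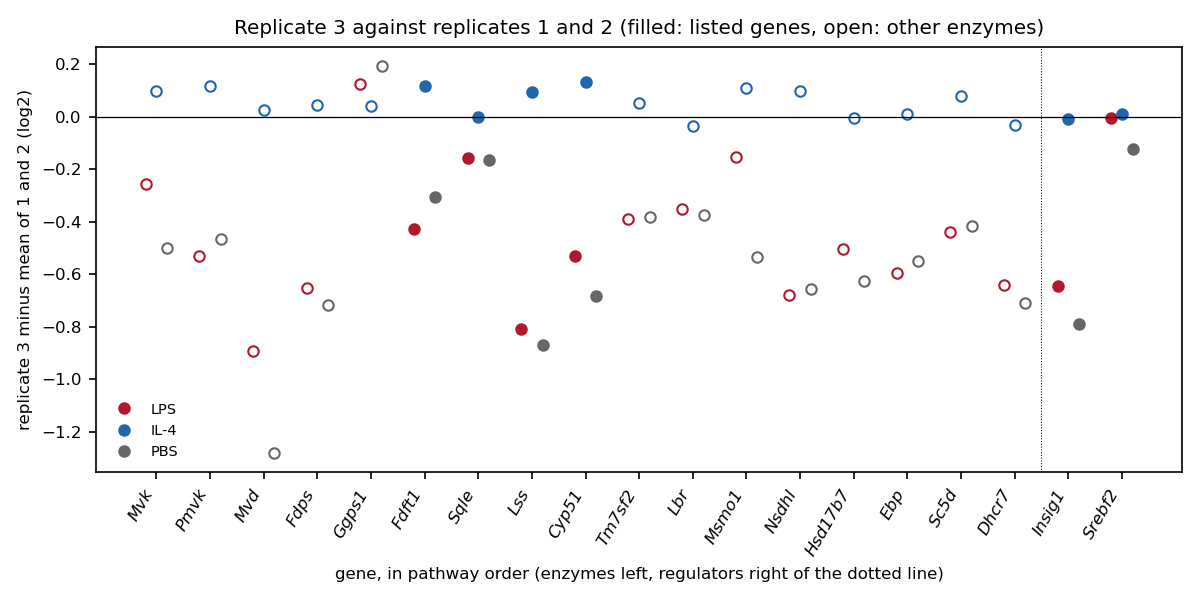
Log2 value on replicate 3 minus the mean of replicates 1 and 2 in LPS, IL-4 and PBS, for 17 enzymes in pathway order and, right of the dotted line, Insig1 and Srebf2. LPS and PBS points lie below 0 for 16 of the 17 enzymes, with Mvd lowest at -1.28 in PBS, while IL-4 points stay between -0.04 and 0.13.

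Markers of other cells also differed on replicate 3 of LPS and PBS, mostly upward for motile cilia, astrocyte and oligodendrocyte lineage markers. On replicate 3 the median shift of the 9 motile cilia markers was 1.51 (LPS), 0.03 (IL-4) and 1.80 (PBS), that of the 10 astrocyte markers 0.56, -0.00 and 0.65, and that of the 11 oligodendrocyte lineage markers 0.79, 0.02 and 0.43. Of the astrocyte markers, 8 of 10 in LPS and 9 of 10 in PBS were above both other arrays, and of the oligodendrocyte lineage markers 9 of 11 and 8 of 11. Of all 21212 rows, 6848 in LPS and 6692 in PBS were above both. Of the 8 fibroblast and meningeal markers, 5 in LPS and 4 in PBS were below both (medians -0.14 and -0.10), near the 47.8% and 48.7% of all rows. Above both were 2 in LPS and 1 in PBS. Those below included Pdgfrb (-0.87 and -0.42), Col1a1 (-0.58 and -0.58) and Col1a2 (-0.32 and -0.57), whereas Fn1 was above (0.12 and 0.33). Across the 9 arrays Pdgfrb had r of 0.91 and Col1a1 r of 0.85 with the member mean. The rest of this list had lower r: Col3a1 0.61, Col1a2 0.59, Ogn 0.56, Dcn 0.43, Lum 0.36 and Fn1 0.02. Microglia markers were higher there in PBS for 9 of 9 (median 0.40) and in LPS for 5 of 9 (median 0.10). The oligodendrocyte lineage genes were uneven: the precursor marker Gpr17 stood at 6.13, 6.22 and 9.01 with LPS and at 6.19, 6.10 and 9.40 with PBS, whereas the myelin genes Mog (5.54 to 5.95) and Mobp (5.15 to 5.42) were below the array medians on all 9 arrays. The part of these cells in the sterol values was not tested. Under IL-4 the cilia markers averaged above all of LPS and PBS replicates 1 and 2, and the 17 enzymes on the IL-4 arrays averaged 9.39 to 9.48, between PBS replicate 3 (9.06) and PBS replicates 1 and 2 (9.58 and 9.60).

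**Figure D5:**
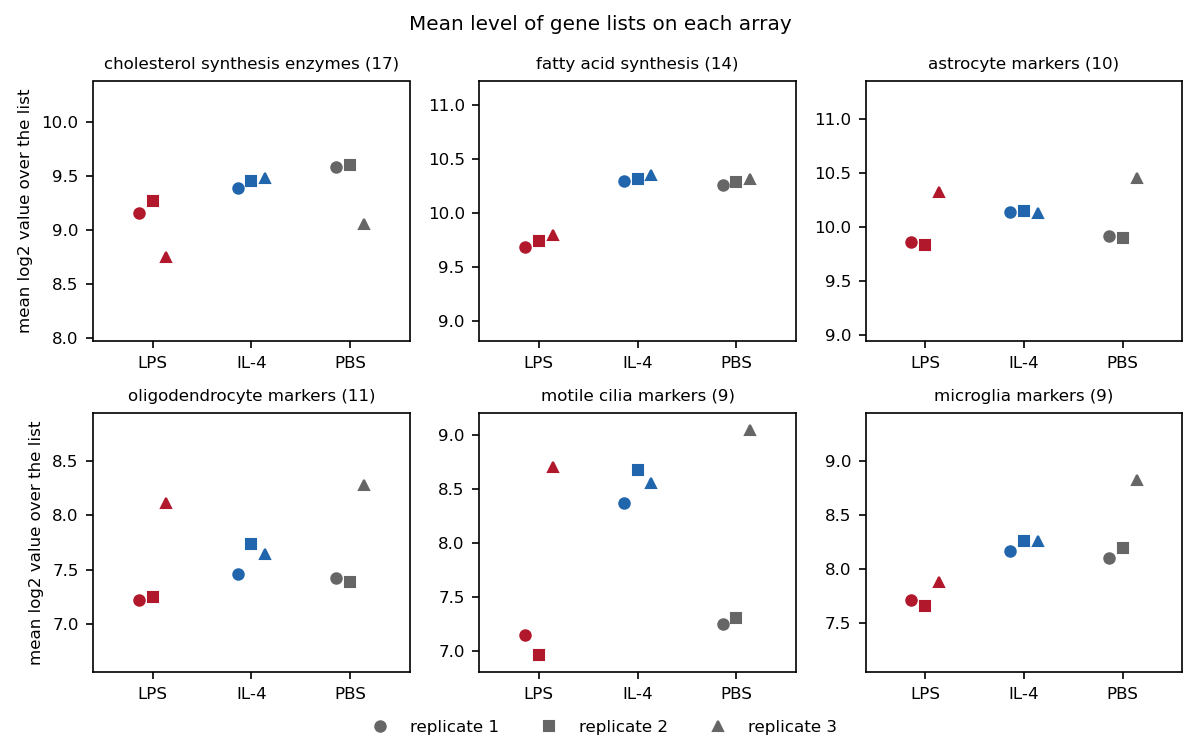
Mean log2 value of 6 gene lists on each array, with LPS, IL-4 and PBS from left to right and marker shape for the replicate; all panels span the same height. On replicate 3 of LPS and PBS the 17 cholesterol synthesis enzymes average 8.75 and 9.06, below replicates 1 and 2, while astrocyte, oligodendrocyte and motile cilia markers lie above them.

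Across the 9 arrays the members varied together to different degrees, as a description over arrays that share 3 conditions and 1 split by replicate number. Pearson r was 0.96 between Lss and Insig1, 0.93 between Lss and Fdft1 and 0.88 between Insig1 and Fdft1. Sqle, which followed the stimulus more than the replicate, had r of 0.78 with Lss and 0.30 with Cyp51, and Srebf2 had r of 0.20 with Insig1. The named genes most like the mean of the 6 centred members were Nsdhl (r = 0.99), Samm50, Slf2, Acy1, Stard4, Cyp20a1, Pfn1 and Mmp19 (r = 0.98 or 0.99 for each of these 7). Nsdhl is an enzyme of the pathway and Stard4 a cytosolic sterol carrier. Stard4 stood at 7.79, 7.96 and 7.39 with LPS, 8.10, 8.24 and 8.25 with IL-4 and 8.46, 8.38 and 7.64 with PBS, again low on replicate 3 of LPS and PBS. Ggps1 ran opposite to the member mean (r = -0.80).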

How the data were processed

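RNA of 9 samples was hybridised to Affymetrix Mouse Exon 1.0 ST arrays. The deposited table holds log2 expression values, which the authors made with RMA in the affy package, per the labels (versions not given in the sources used here). RMA corrects background, equalises the distributions of the arrays and summarises probes per gene, so low values are compressed and the number of arrays limits the precision. Rows took their symbols from the platform annotation: 18786 of 21212 rows had 1 symbol, 6 several and 2420 none, and a row without a single symbol was counted but not named. All columns of per-sample values were used.

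Groups came from the labels. LPS, IL-4 and PBS were compared by limma 3.58.1 (lmFit and eBayes, statmod 1.5.0, R 4.3.3) in 1 fit of the 9 arrays that had a term for each condition, with 6 residual and 2.38 prior degrees of freedom. P-values were adjusted over all rows (Benjamini-Hochberg), and a gene is called at an adjusted p under 0.05. Deviations from condition means correlated between same-numbered LPS and PBS arrays (0.578, 0.651 and 0.80, although crossed numbers 1 and 2 also gave 0.542 and 0.605), but less evenly for IL-4 with PBS (0.339, -0.255 and 0.0752) and LPS with IL-4 (0.289, -0.228 and 0.0593). Pairing by number was accepted for LPS with PBS and for no other comparison, although these values set only number 3 apart. The fit was tested on simulated data whose noise was independent between arrays, so that test did not cover the shared deviation of replicate 3. The members, the lists and the rule for named genes (members, every synthesis and sensing gene, in other lists up to 4 called genes with the largest change and the 2 brightest that missed, and the 8 genes most like the member mean) were chosen with earlier results of these data known. Single marker genes of other cell types, and Lpin1 and Acly on replicate 3, were named after their values were seen. Alternatives were the methods' t-test, a fit of the 6 arrays compared, the trend and robust options of eBayes, weights per array, renormalization by quantiles or by array medians, a filter on dim rows, a replicate block and leaving out arrays; the block over 6 arrays was added after seeing the data. Python 3.11.15 (matplotlib 3.10.9, numpy 2.4.6, pandas 2.3.3) drew the plots.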

Additional observations from a re-analysis of the deposited data

How the results depend on the processing

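The fall of Sqle with LPS passed the threshold under every alternative run. Counts of members depended on how replicate 3 was treated. For LPS against PBS 1 member was called lower, 2 with the replicate block over 9 arrays, 4 with the block over 6 arrays, 3 with array weights, 3 on 7 arrays and 1 to 3 when 1 array was left out; 1 was called higher with array medians subtracted. For IL-4 against PBS 0 were called, against 1 lower and 2 higher with array weights and 2 lower and 1 higher on 7 arrays. For LPS against IL-4 1 was lower, against 2 with the methods' t-test, 3 with array weights, 3 after quantile normalization, 2 with the replicate block, 2 on 7 arrays and 1 to 2 without 1 array. The count of rows called for LPS against PBS was 8014, against 5303 by the methods' t-test. For IL-4 against PBS it was 1146, against 716 by the methods' t-test, 8295 with array weights, 6389 on 7 arrays and 466 to 2033 without 1 array. Subtracting array medians moved the median LPS minus PBS difference of all rows to 0.12, against 0.01, and the share of calls that were higher to 63.9%, against 40.8%, and for LPS against IL-4 to 72.1%, against 44.8%. For IL-4 against PBS that share was 50.3%, against 62.0%.

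Differences that changed sign were all of genes not called in the fit of 9 arrays. In LPS minus PBS, these were Srebf2 after quantile normalization (-0.024), Hsd17b7 with array weights (-0.011), Me1 (0.092), Pmvk (0.067) and Insig2 (0.030) with medians subtracted, and Npc2 (-0.079) and Pmvk (0.0755) after quantile normalization. Without 1 array the difference ran from -0.15 to 0.26 for Cyp51, -0.45 to 0.011 for Fdps, -0.15 to 0.23 for Hsd17b7, -0.0540 to 0.013 for Me1, -0.026 to 0.063 for Npc2 and -0.20 to 0.13 for Pmvk. In IL-4 minus PBS, Fdft1 was -0.0115 with array weights and -0.014 on 7 arrays, Fads2 -0.017 with medians subtracted, and without 1 array Fdft1 ran from -0.014 to 0.18, Lss from -0.32 to 0.13 and Fads2 from -0.0039 to 0.0765. In LPS minus IL-4, Cyp51 was 0.0093 on 7 arrays and -0.27 to 0.0093 without 1 array, and Srebf2 was 0.053 with medians subtracted. The cause was not tested.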
